A study of Homo sapiens with 6 samples.

Results

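Translation initiation factors (gene symbols that start with EIF) and elongation factors (EEF) were followed in K562, an established human cell line of chronic myelogenous leukaemia, given 20 µM 3FM-dC plus 2 mM THU for 24 h. The members are all EIF and EEF symbols of the count files except the EIF2 kinases (EIF2AK), the EIF2B subunits, EIF2S1, EIF1AY and pseudogenes. Of 23710 gene symbols, 68 start with EIF or EEF, 13 were left out and 55 were members. EIF4EBP1, EIF4EBP2 and EIF4EBP3 were kept, since their ending names a binding protein and not a pseudogene. RNA sequencing libraries came from 3 samples with both compounds (called treated here) and 3 with DMSO alone, all of 1 cell line at passages 13 to 16 in medium with 10% serum. The series is titled as work on an activator of TET2, and its design asked how 3FM-dC alters gene expression. The labels name both compounds by abbreviation only. No group had 1 compound without the other, and their separate effects cannot be told apart. Nothing in the labels says that the 3 samples of a group came from separate cultures, and p-values therefore measure only the spread between these samples, which may be technical.

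Protein synthesis starts when a small ribosomal subunit carrying initiator tRNA, brought by EIF2, is loaded onto an mRNA whose cap is held by EIF4E. EIF4G bridges the cap to the large EIF3 complex on the ribosome, EIF4A unwinds the leader, and EIF1, EIF1A and EIF5 choose the start codon. EEF1A then brings each aminoacyl-tRNA and EEF2 moves the ribosome along. Growing leukaemia cells depend on this machinery, and cells under stress limit it through EIF2 and through proteins that bind EIF4E.

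In treated cells, EIF1 and EIF1B, the EIF4E-binding repressors EIF4EBP1 and EIF4EBP2, the minor paralogs EIF4G3 and EIF4E3, and the abundant elongation factors EEF1A1 and EEF2 rose. EIF5A, EIF3B, EIF5B, the cap-binding protein EIF4E and its main scaffold EIF4G1 fell. Of the 55 members 49 passed the filter on low counts and were tested. Of these 49, 37 were called changed (75.5%, against 66.4% of all tested genes): 13 (26.5%) were higher, 24 (49.0%) lower and 12 did not pass (edgeR's quasi-likelihood test, adjusted p under 0.05), against 33.8% higher and 32.7% lower among all 12339 tested genes. Levels in CPM, read counts per 1000000 counts of the scaled library, did not overlap between the groups in 41 of the 49, or 83.7%, against 70.0% of all tested genes.

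The median log2 fold change of the tested members was -0.10, beside 0.01 over all tested genes. The changes were modest: no member changed at least 2-fold by edgeR, also at an unadjusted p under 0.05 (0 members), or by DESeq2 (0 members), while 12.7% of all tested genes were called at that size. Past a fold change of 1.2 lay 7 called members upward (14.3%, against 27.7% of all tested genes) and 12 downward (24.5%, against 23.7%). The split depended on how libraries were scaled and on the filter for low counts. Under a filter at 5 CPM, 15 of 47 tested members were higher and 19 lower, beside 3508 higher and 3444 lower of 9791 tested genes. The excess of called members over all genes thus depended on which genes were compared. With total counts in place of TMM factors, which raised the log2 fold changes of all genes by 0.09 at the median, 18 members (36.7%) were higher and 17 (34.7%) lower, against 40.9% higher and 25.8% lower among all tested genes. How much RNA a cell held was not measured, and in bulk samples fewer cells of a type and less RNA per cell cannot be told apart.

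**Figure D1:**
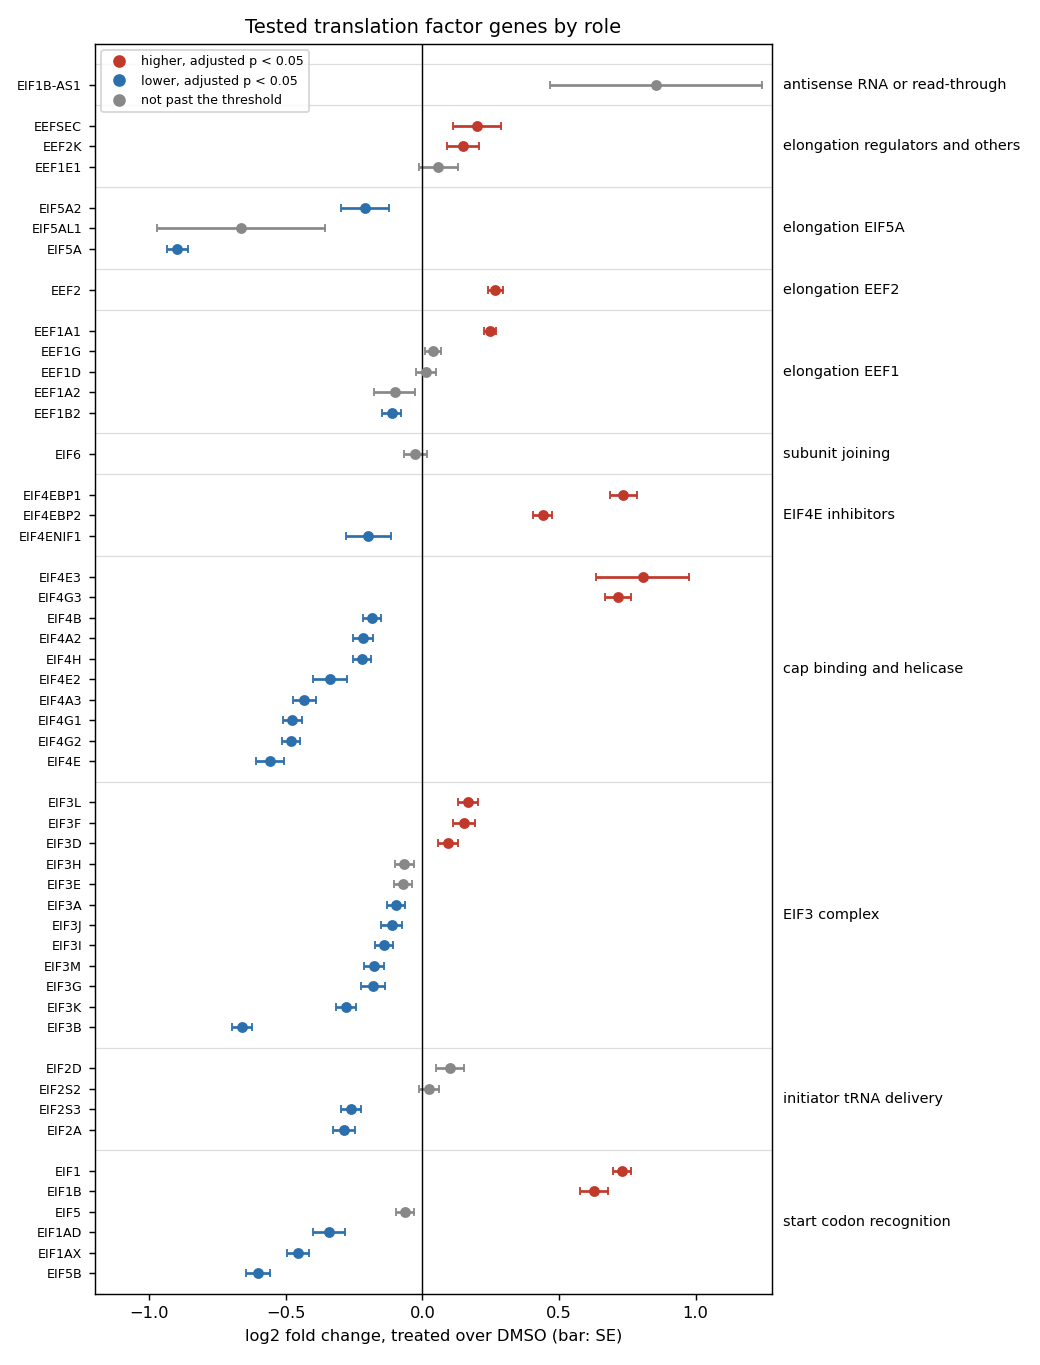
Log2 fold change (treated over DMSO, x axis) with its SE for the 49 tested members, grouped by role, in red where higher, blue where lower and grey where the test did not pass. EIF5A lies lowest at -0.90, and EIF1, EIF4G3, EIF4E3 and EIF4EBP1 lie above 0.70.

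Depth ran from 18408826 to 22750278 counts in genes per library. Of 7 erythroid genes that mark K562, all 7 were detected and fell, with a summed level of 5405 to 5521 CPM in DMSO and 2677 to 2861 CPM in treated libraries. Of 5 lymphoid genes 1 was higher and none lower (7.87 to 8.98 CPM in sum, then 9.57 to 11.3 CPM; MS4A1 at 0). Of 5 fibroblast and endothelial genes 1 was higher and 2 were lower (10.3 to 13.8 CPM, then 6.90 to 11.4 CPM; CDH5 at 0). Of 5 epithelial genes 2, EPCAM and MUC1, were lower (124 to 129 CPM, then 69.8 to 76.4 CPM; KRT5 and KRT14 at 0). The part of these genes in the results below was not tested.

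The 6 genes grouped under start codon recognition went both ways, with 2 higher, 3 lower and 1 not past the threshold. The group is broad: it includes EIF5B, which joins the ribosomal subunits, and EIF1AD, named for an EIF1A domain. Both were among the lower genes, and apart from them only EIF1AX was lower. EIF1 keeps the scanning ribosome from starting at the wrong codon. Its level was 583, 574 and 597 CPM in DMSO replicates 1, 2 and 3 and 944, 996 and 967 CPM in the treated ones. Every treated library thus lay far above every DMSO library, a 1.66-fold rise (log2 fold change 0.73, SE 0.03, edgeR adjusted p = 1.32e-17). EIF1B, its close paralog, had 97.0, 87.4 and 97.0 CPM in DMSO and 139, 155 and 141 CPM in treated libraries. It rose 1.54-fold (log2 0.63, SE 0.05, edgeR adjusted p = 1.06e-11), again with no overlap. Per kilobase of the longest principal transcript, EIF1 stood at 251 and EIF1B at 92.9 CPM per kb in DMSO, and at 416 and 144 in treated cells.

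EIF5, which triggers GTP hydrolysis once the start codon is found, had 490.3, 493 and 479 CPM in DMSO and 462, 470.1 and 466 CPM in treated cells. This small difference (log2 -0.06, SE 0.03) did not pass (edgeR adjusted p = 0.0872). Without treated replicate 2 it passed (adjusted p = 0.0397), and over the 13 alternative settings tried its adjusted p ranged from 0.0397 to 1. With total counts its sign turned (0.03). Such ranges are given below for each call that hung on 1 library. Each range includes the test against a minimum fold change of 1.2, which asks whether a change exceeds that size. The upper end of a range can come from that test, and then does not show that a change was absent. EIF5B, the GTPase that joins the ribosomal subunits, fell from 583, 559.8 and 579.9 CPM to 415, 347 and 373 CPM. That was a fall by 0.60 on the log2 scale (SE 0.04, edgeR adjusted p = 1.03e-12). EIF1AX, the EIF1A gene of the X chromosome, fell by 0.46 and EIF1AD, named for an EIF1A domain, by 0.34 on the log2 scale.

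Factors that bring initiator tRNA were lower or unmoved by the test, with 2 of 4 lower and none higher (2 lower and 2 higher with total counts). EIF2S3, the GTP-binding gamma subunit of EIF2, had 687, 698 and 690.0 CPM in DMSO and 608, 536 and 588 CPM in treated cells. Treated replicate 2 was lowest, and all treated libraries lay under all DMSO libraries (log2 -0.26, SE 0.04, edgeR adjusted p = 5.58e-07). EIF2S2, the beta subunit, had 292, 297 and 302 CPM in DMSO and 302, 305 and 299 CPM in treated cells, and these ranges overlapped (log2 0.02, SE 0.04, edgeR adjusted p = 0.567). With total counts EIF2S2 passed upward (log2 0.11, edgeR adjusted p = 0.00485, over a range of 0.00485 to 1). EIF2A, a factor for unconventional initiation that is not a subunit of EIF2, fell from 183, 178 and 183 CPM to 149, 146 and 152 CPM (log2 -0.29, SE 0.04, edgeR adjusted p = 4.63e-07). EIF2D, which can deliver tRNA without GTP, had 112, 97.8 and 106 CPM in DMSO and 116, 114 and 109 CPM in treated cells (log2 0.10, SE 0.05, edgeR adjusted p = 0.0804). Without DMSO replicate 1, EIF2D passed (0.0330, over a range of 0.00114 to 1), as it did with total counts and with a filter at 5 CPM.

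The EIF3 complex, the scaffold of the initiating ribosome, had 3 tested subunits higher (25.0%) and 7 lower (58.3%) of 12. Among all tested genes 33.8% were higher and 32.7% lower. The median log2 fold change of the subunits was -0.10. With total counts 3 were higher and 3 lower, and the median was -0.01. EIF3B, a core subunit, moved most among the subunits. Its level was 849, 849 and 866 CPM in DMSO and 574, 502 and 547 CPM in treated cells, a fall by 0.66 on the log2 scale (SE 0.04, edgeR adjusted p = 4.61e-15). EIF3K, a small peripheral subunit, fell from 364, 346 and 363 CPM to 298, 296 and 290.0 CPM (log2 -0.28, SE 0.04, edgeR adjusted p = 8.65e-08).

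EIF3A, the largest core subunit, had 571, 576 and 561 CPM in DMSO and 543, 529 and 525 CPM in treated cells. This 0.10 fall (SE 0.03, edgeR adjusted p = 0.0105) was small though the ranges did not overlap, and it did not pass without treated replicate 3 (0.0554), with total counts (0.868) or with a filter at 5 CPM (0.123), over a range of 0.00317 to 1. EIF3G, EIF3I, EIF3J and EIF3M were lower by log2 fold changes between -0.18 (EIF3G) and -0.11 (EIF3J), and EIF3J did not pass without DMSO replicate 1 (0.0846, over a range of 0.00199 to 1). EIF3E and EIF3H had log2 fold changes of -0.07 each and did not pass, and both were above 0 with total counts (0.02 each). EIF3E passed without DMSO replicate 3 (0.0352, over a range of 0.0299 to 1).

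EIF3L, EIF3F and EIF3D went the other way. EIF3L rose from 348, 355 and 364 CPM to 411, 391 and 398 CPM (log2 0.17, SE 0.04, edgeR adjusted p = 0.000143). EIF3F rose by 0.15 and EIF3D by 0.09 on the log2 scale. EIF3D, a subunit that can itself hold the cap of some mRNAs, did not pass without DMSO replicate 1 (0.126), DMSO replicate 2 (0.143) or treated replicate 3 (0.0902), over a range of 4.13e-05 to 1.

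Cap binding and helicase factors all changed among the 10 tested, against 66.4% of all tested genes. Of the 10, 8 were lower (80.0%, against 32.7%) and 2 higher (20.0%, against 33.8%). EIF4E, which holds the cap, had 100.3, 109 and 100.4 CPM in DMSO and 72.0, 67.2 and 71.2 CPM in treated cells. It fell by 0.56 on the log2 scale (SE 0.05, edgeR adjusted p = 1.64e-10), with each treated library well under the lowest DMSO library. EIF4G1, the main scaffold, fell from 1078, 1071 and 1095 CPM to 811, 729 and 792 CPM (log2 -0.48, SE 0.03, edgeR adjusted p = 1.06e-12). EIF4G2, a scaffold that lacks the EIF4E site, fell equally far (log2 -0.48). EIF4A3, the helicase of the exon junction complex, fell by 0.43, EIF4E2, a cap-binding repressor, by 0.34, and the helicase cofactors EIF4H and EIF4B by 0.22 and 0.18 on the log2 scale.

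EIF4G3 and EIF4E3 rose, and per length each was the least abundant of the tested EIF4G or EIF4E genes. EIF4G3 rose from 78.6, 76.9 and 75.9 CPM to 133, 123 and 124 CPM (1.64-fold, log2 0.72, SE 0.05, edgeR adjusted p = 1.91e-13). Per kilobase, EIF4G3 went from 13.3 to 21.8 and EIF4G1 from 196 to 141 CPM per kb, so EIF4G1 stayed the more abundant of the pair in both groups. EIF4G2 went from 724 to 519 CPM per kb. EIF4E3, a family member with an unusual cap pocket, had 68, 100 and 108 counts in DMSO and 136, 198 and 183 in treated libraries. In CPM these were 3.77, 5.60 and 4.90 and then 6.96, 9.43 and 8.57, a 1.75-fold rise (log2 0.81, SE 0.17, edgeR adjusted p = 0.000151). Per kilobase, EIF4E3 went from 0.478 to 0.836, EIF4E from 8.96 to 6.09 and EIF4E2 from 29 to 22.9 CPM per kb. These values depend on the annotated length used, 1.969 kb for EIF4G2, 11.523 kb for EIF4E and 1.604 kb for EIF4E2. Which transcripts the cells made was not tested. Before division by length, EIF4E (103 CPM in DMSO) lay above EIF4E2 (46.5 CPM).

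EIF4A2, a helicase of the cap complex, had 258, 257 and 256 CPM in DMSO and 219.5, 219.6 and 224 CPM in treated cells. The libraries of each group lay close together, and EIF4A2 fell by 0.22 on the log2 scale (SE 0.04, edgeR adjusted p = 7.01e-06). EIF4A1, its more widely used paralog, is listed at 0 counts in all 6 libraries, as are EIF3C and its near-identical copy EIF3CL. These are genes that dividing cells use, so a count of 0 is not read as absence here. In GENCODE release 29 (GRCh38), all annotated exons of EIF4A1 together hold 5316 bases, and its longest principal transcript is 1.756 kb. Exons of AC016876.2 cover 41.1% of the 5316 bases and those of the read-through transcript SENP3-EIF4A1 29.8% (1586 bases), both on the strand of EIF4A1. The share of the principal transcript that they cover was not tested. SENP3-EIF4A1 had between 1 and 5 counts per library. Reads assigned to no single gene (ambiguous) made up between 2.27% and 2.38% of the deposited counts, and how many came from these genes was not tested.

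Of 3 tested genes for proteins that bind and restrain EIF4E, EIF4EBP1 and EIF4EBP2 were higher and EIF4ENIF1 lower. These were 66.7% higher and 33.3% lower, against 33.8% and 32.7% of all tested genes. EIF4EBP1, a repressor that mTORC1 switches off, had 85.2, 84.6 and 90.0 CPM in DMSO and 134, 150 and 149 CPM in treated cells (1.66-fold, log2 0.74, SE 0.05, edgeR adjusted p = 1.82e-13). Its paralog EIF4EBP2 rose from 369, 369 and 352 CPM to 481, 494 and 504 CPM (1.36-fold, log2 0.44, SE 0.03, edgeR adjusted p = 6.16e-12). For both, no treated library reached down to a DMSO library. The log2 ratio of EIF4EBP1 to EIF4E in CPM, which is not adjusted for length, went from -0.25 ± 0.11 to 1.04 ± 0.13 (SD, n = 3 per group), a difference of 1.29 (exact permutation test, two-sided, p = 0.1, the smallest that 3 against 3 allows). EIF4EBP1 and EIF4E moved in opposite directions without overlap, so this p was fixed in advance and adds nothing to their calls.

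EIF4EBP3 had between 0 and 6 counts per library and was not tested. EIF4ENIF1, which carries EIF4E to the nucleus and to mRNA granules, had 34.9, 27.5 and 32.5 CPM in DMSO and 27.5, 28.5 and 26.8 CPM in treated cells. Its ranges overlapped, and its lower call (log2 -0.20, SE 0.08, edgeR adjusted p = 0.0340) was lost without DMSO replicate 1 (0.214), DMSO replicate 3 (0.111), treated replicate 1 (0.0503) or treated replicate 3 (0.101), over a range of 0.00355 to 0.791.

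**Figure D2:**
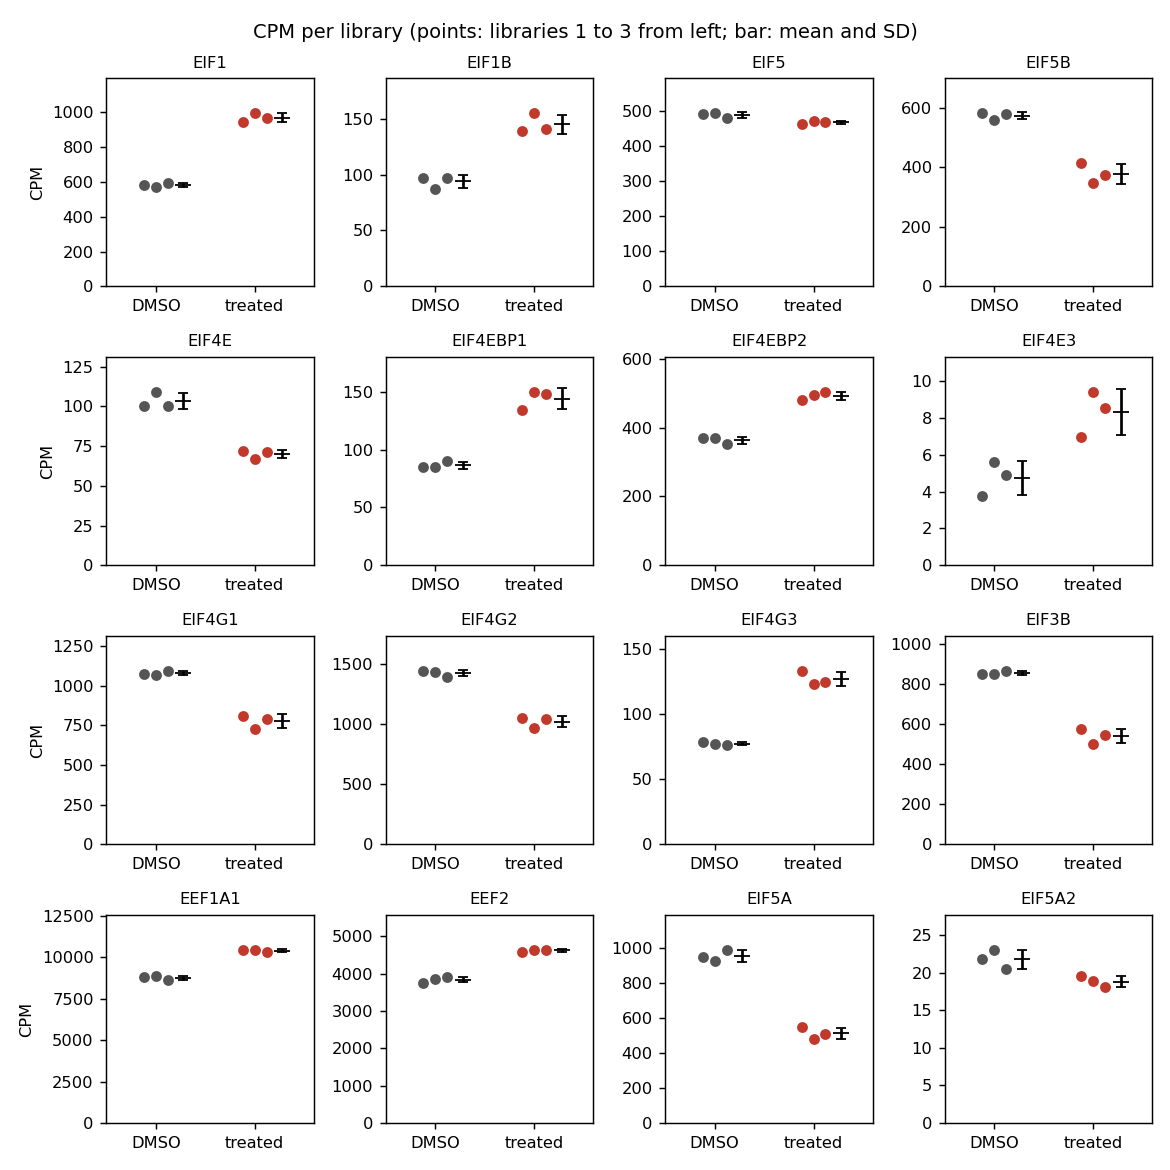
CPM (y axis, from 0) in each of the 3 DMSO (grey) and 3 treated (red) libraries for 16 members, with the mean and SD beside the points. EIF1, EIF4EBP1 and EIF4G3 lie higher and EIF5A, EIF3B and EIF4E lower in every treated library, while EIF5 differs little.

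EIF6, which keeps the large ribosomal subunit from joining early, had 175, 176 and 186 CPM in DMSO and 175, 180.0 and 174 CPM in treated cells. The ranges overlapped and the test did not pass (log2 -0.03, SE 0.04, edgeR adjusted p = 0.594).

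Elongation factors held most of the counts listed for the members, among which EIF4A1, EIF3C and EIF3CL stand at 0. EEF1A1, the carrier of aminoacyl-tRNA, alone took between 0.838% and 0.859% of all counts in genes in DMSO and between 1.06% and 1.09% in treated libraries. Such shares are of total counts without TMM factors, a scaling that raised log2 fold changes by 0.09 at the median, so they differ from CPM. The level of EEF1A1 was 8785, 8859 and 8649 CPM in DMSO and 10433, 10468 and 10316 CPM in treated cells, with libraries of a group close together. It rose 1.19-fold (log2 0.25, SE 0.02, edgeR adjusted p = 2.67e-10). EEF1A1 has many processed copies in the genome, so its reads can be shared with them. EEF2, the translocase, rose from 3763, 3853 and 3906 CPM to 4588, 4644 and 4635 CPM (1.2-fold, log2 0.27, SE 0.03, edgeR adjusted p = 4.18e-10). Neither passed against a minimum fold change of 1.2 (adjusted p = 0.735 for EEF1A1 and 0.380 for EEF2, over ranges that begin at 1.54e-19 and 1.05e-19).

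EEF1A2, the form of muscle and neurons, had 31.4, 28.9 and 32.9 CPM in DMSO and 30.8, 27.9 and 28.3 CPM in treated cells, with overlap (log2 -0.10, SE 0.08, edgeR adjusted p = 0.240). Per kilobase, EEF1A1 stood at 1974 and EEF1A2 at 15.4 CPM per kb in DMSO. Of the exchange factor subunits that recharge EEF1A with GTP, EEF1B2 fell from 445, 449 and 444 CPM to 417, 409.6 and 411 CPM (log2 -0.11, SE 0.03, edgeR adjusted p = 0.00372). EEF1G and EEF1D had log2 fold changes of 0.04 and 0.01 and did not pass. With total counts EEF1A1, EEF1G and EEF1D were called higher and EEF1B2 did not pass (0.545, over a range of 0.000913 to 1).

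EEF symbols together took 1.47% ± 0.01 of all counts in genes in DMSO and 1.82% ± 0.02 in treated libraries (SD, n = 3 per group). EIF symbols took 1.42% ± 0.01 and 1.33% ± 0.02. Both are shares of total counts without TMM factors. The groups did not overlap for either share, and each exact permutation test (two-sided) gave p = 0.1, the smallest possible with 3 against 3. The adjusted value over the 6 such tests was also 0.1. EEF1A1 and EEF2 made up between 42.1% and 42.6% of the members' counts in DMSO and between 48.8% and 49.8% in treated libraries. EIF4A1, EIF3C and EIF3CL enter all these shares at 0 counts, which is not read as absence, so the share of EIF symbols may be understated. The EIF5A genes, elongation factors by role, are counted among the EIF symbols, and symbols left out of the members, such as EIF2S1, are not counted.

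**Figure D3:**
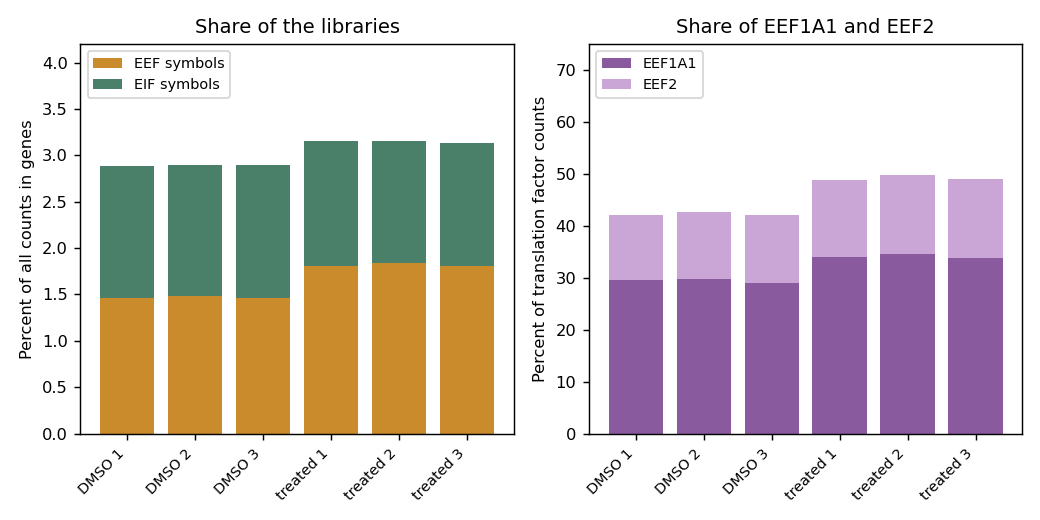
Left, EEF and EIF symbols as a percent of all counts in genes for each library; right, EEF1A1 and EEF2 as a percent of the members' counts. EEF symbols take 1.47% on average in DMSO and 1.82% in treated libraries, and EIF symbols 1.42% and 1.33%.

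Many mRNAs of the translation machinery begin with a C and a run of pyrimidines, a terminal oligopyrimidine tract through which mTORC1 controls their translation. Annotated starts were therefore read from RefSeq (GRCh38.p14) for 44 of 55 members, 9 of which had more than 1 listed start. EEF1E1-MUTED, EIF3A, EIF3CL, EIF3E, EIF3G, EIF3H, EIF3L, EIF4EBP1, EEF1A2, EEF1D and EIF2S2 were not matched. A start was called a pyrimidine start where the first transcribed base was C and at least 5 bases from it, that base included, were C or T on the transcript's strand. This rule was set after the fold changes had been seen. The starts below show 10 bases before and 20 from the start, and capitals mark the pyrimidine run from the first transcribed base. The first 4 belong to members that rose, the next 4 to members that fell, and the last 3, with no such run, to EIF1, EIF4E and EIF5B. EEF1B2 also has a listed start without a run, which is not shown.
EEF1A1, chr6:73521013-73521042, minus strand: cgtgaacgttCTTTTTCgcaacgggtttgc
EEF2, chr19:3985444-3985473, minus strand: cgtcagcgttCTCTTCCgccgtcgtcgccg
EIF3F, chr11:7987327-7987356, plus strand: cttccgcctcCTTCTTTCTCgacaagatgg
EIF3D, chr22:36529147-36529176, minus strand: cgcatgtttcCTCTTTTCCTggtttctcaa
EEF1B2, chr2:206159885-206159914, plus strand: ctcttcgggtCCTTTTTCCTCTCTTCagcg
EIF3K, chr19:38619178-38619207, plus strand: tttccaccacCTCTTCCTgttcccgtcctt
EIF2A, chr3:150546777-150546806, plus strand: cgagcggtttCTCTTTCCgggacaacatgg
EIF4B, chr12:53006446-53006475, plus strand: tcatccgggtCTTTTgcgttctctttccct
EIF1, chr17:41688875-41688904, plus strand: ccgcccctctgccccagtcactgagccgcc
EIF4E, chr4:98929114-98929143, minus strand: tggagcggttgtgcgatcagatcgatctaa
EIF5B, chr2:99337379-99337408, plus strand: ctgagaactcacaccatatgtgtcctgttc

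Pyrimidine starts were found in 12 of the 40 tested members with a listed start (30.0%), against 7.67% of 8946 tested genes and 69.7% of 66 tested cytosolic ribosomal protein genes. Of these 12 members 4 were higher and 7 lower, and their log2 fold changes ran from -0.29 to 0.27 with a median of -0.15. Among all 686 tested genes with such a start 37.0% were higher and 33.4% lower, with a median of 0.03. Of the 28 members with other starts 7 were higher and 15 lower, from -0.90 to 0.86 with a median of -0.17. The value of 0.86 is that of EIF1B-AS1, a noncoding RNA that did not pass, and the highest coding gene was EIF4E3 (0.81). Among all 8260 tested genes with other starts 33.5% were higher and 33.9% lower, with a median of 0.00. No test compared the kinds of start.

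**Figure D4:**
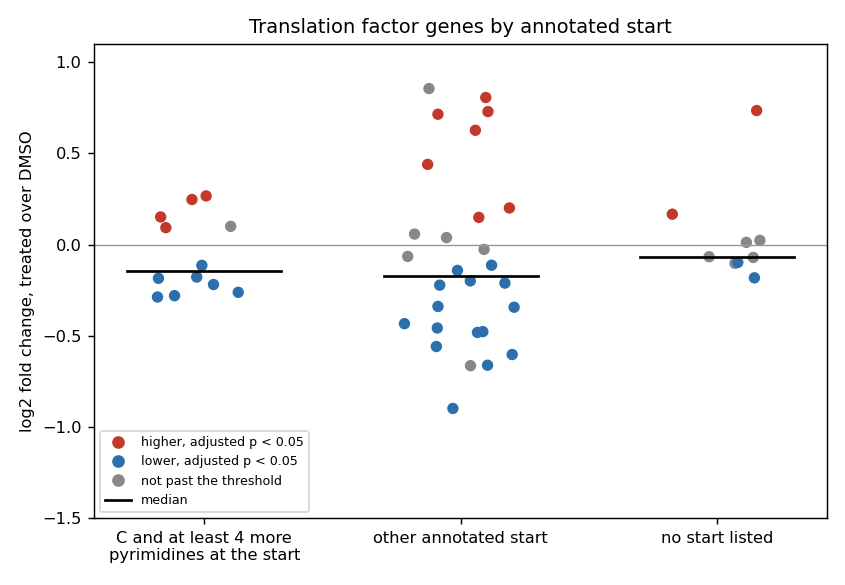
Log2 fold change (y axis) of the 49 tested members by annotated start, with a black line at the median of each kind. The 12 members with a pyrimidine start lie between -0.29 and 0.27, and those past these values in either direction have other starts or no listed start.

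The letters TGATGNAA, a form of the element bound by ATF4 with C/EBP partners, were searched on both strands from 250 bases before to 50 after each listed start. They were found in 1 of 44 members, EIF4E3, 13 bases before 1 of its listed starts, or 2.27%, against 2.63% of the 8946 tested genes. A match of letters is a description of the window and not a site.

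EIF5A, which frees ribosomes stalled at proline stretches and carries the modified residue hypusine, had the largest change among called members. Its level was 945, 922 and 988 CPM in DMSO and 546, 479.9 and 507 CPM in treated cells. That was a 1.86-fold fall (log2 -0.90, SE 0.04, edgeR adjusted p = 6.79e-18), with the groups far apart. EIF5A2, its paralog, fell from 21.8, 23.1 and 20.5 CPM to 19.5, 18.9 and 18.1 CPM (log2 -0.21, SE 0.09, edgeR adjusted p = 0.0380). That call was lost without DMSO replicate 1 (0.0702), DMSO replicate 2 (0.131), treated replicate 2 (0.0575) or treated replicate 3 (0.125), over a range of 0.0293 to 0.708. EIF5AL1, an intronless copy of EIF5A that can share its reads, had a log2 fold change of -0.66 (SE 0.31) and did not pass (edgeR adjusted p = 0.0589). Without treated replicate 3 EIF5AL1 passed (0.0297, over a range of 0.0297 to 0.176). Per kilobase, EIF5A stood at 630 and EIF5A2 at 3.90 CPM per kb in DMSO, and at 338 and 3.36 in treated cells.

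Regulators and specialised elongation genes changed little. EEF2K, the kinase that inhibits EEF2, had 72.8, 81.6 and 67.0 CPM in DMSO and 80.8, 80.1 and 84.2 CPM in treated cells. The ranges overlapped, and its higher call (log2 0.15, SE 0.06, edgeR adjusted p = 0.0273) was lost without DMSO replicate 1 (0.0819), DMSO replicate 3 (0.251) or treated replicate 3 (0.111), over a range of 0.000572 to 1. EEFSEC, which delivers selenocysteine tRNA, had 18.2, 18.2 and 19.6 CPM in DMSO and 20.6, 22.3 and 21.6 CPM in treated cells. Its groups did not overlap, but the call (log2 0.20, SE 0.09, edgeR adjusted p = 0.0457) was lost with a replicate block (0.0522), with DESeq2 (0.0827) and without DMSO replicate 1 (0.130), DMSO replicate 2 (0.120), treated replicate 2 (0.121) or treated replicate 3 (0.106), over a range of 0.00506 to 0.752. EEF1E1, a scaffold protein of the aminoacyl-tRNA synthetase complex, had a log2 fold change of 0.06 and did not pass.

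EIF1B-AS1, a noncoding RNA read away from the start of EIF1B on the other strand, had 11, 17 and 13 counts in DMSO and 23, 35 and 22 in treated libraries. Its log2 fold change of 0.86 (SE 0.39) did not pass (edgeR adjusted p = 0.0536). Without DMSO replicate 2 EIF1B-AS1 passed (0.0423, over a range of 0.0336 to 0.236). In GENCODE release 29 the exons of EIF1B and EIF1B-AS1 share 15 bases, and by that annotation only reads there depend on the strand setting of the counting, which is not given in the sources used here. EIF4E1B, EEF1E1-MUTED, EIF4A1, EIF3C and EIF3CL, all at 0 counts, and EIF4EBP3 were the 6 members not tested.

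Other genes of translation were taken from a list of 36, of which 34 were in the files and tested. Of these, 6 were higher (17.6%, against 33.8% of all tested genes), 16 lower (47.1%, against 32.7%) and 12 did not pass. Their median log2 fold change was -0.09. MKNK2, a kinase that phosphorylates EIF4E, rose from 185 ± 0.17 to 373 ± 1.88 CPM (SD, n = 3 per group). PDCD4, an inhibitor of EIF4A, rose from 35.1 ± 0.79 to 85.9 ± 6.28 CPM. DPH2, of the enzymes that make diphthamide on EEF2, fell from 137 ± 5.99 to 76.0 ± 3.14 CPM, and ABCF1, an ATPase that binds EIF2, from 447 ± 8.16 to 303 ± 20.8 CPM. DOHH, which completes hypusine on EIF5A, was lower (log2 -0.53), while DHPS, which starts it, did not pass (log2 -0.05). Both hypusine enzymes were picked with their values in view.

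Mitochondrial translation factors were lower in 7 of 10 (70.0%, against 32.7% of all tested genes) and higher in none (against 33.8%). GFM1, the mitochondrial translocase, fell by 0.74 and TUFM, the mitochondrial carrier of tRNA, by 0.57 on the log2 scale, whereas their cytosolic counterparts EEF2 and EEF1A1 were higher (0.27 and 0.25). Cytosolic aminoacyl-tRNA synthetases were all called, against 66.4% of all tested genes. Of 20, 12 were higher (60.0%) and 8 lower (40.0%), with a median log2 fold change of 0.14. WARS, for tryptophan, rose by 1.64 and GARS, for glycine, by 0.80 on the log2 scale. VARS, for valine, fell by 0.61 and FARSA, a subunit for phenylalanine, by 0.70 on the log2 scale. Of 81 tested cytosolic ribosomal protein genes 18 were higher (22.2%) and 29 lower (35.8%), with a median of -0.05. In all 58.0% of them were called, fewer than the 66.4% of all tested genes. RPL12 (log2 0.31) and RPL39L (0.71) were higher with the smallest p, and RPS26 (-0.57) and RPL36AL (-0.43) lower. No test compared these lists with the initiation and elongation factors.

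Treated replicate 2 lay farthest from DMSO among the 3 treated libraries in 17 of the 24 lower members (70.8%) and 8 of the 13 higher ones (61.5%). Among all called genes this share was 59.8% of those lower and 53.4% of those higher. Leaving out treated replicate 2 gave 12 members higher and 24 lower.

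In the authors' deposited table, which compares an unnamed group B with an unnamed group A, 50 of the members are listed. For the 49 tested members the fold ratio in the authors' deposited table had the same sign on the log2 scale as the values above in 48, the exception being EEF1D. The authors' deposited table gave log2 ratios lower by 0.01 at the median. It comes from the same libraries and is no independent measurement.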

How the data were processed

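RNA was measured by sequencing mRNA libraries made from 1000 ng of total RNA per sample with a directional kit, per the labels' protocols. For every library the authors deposited whole-number read counts by gene symbol. STAR, Cufflinks, DESeq2 and the genome build hg19 are named without roles, per the submitters' processing notes. Which program counted the reads, with what strand setting and annotation, is not given in the sources used here. The 5 rows that name no gene were left out of library sizes; reads in no feature were between 10.9% and 13.1% of the deposited counts. Per the file headers, a further deposited table gives a fold ratio and an adjusted p-value per gene, used only for comparison.

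Counts were tested with edgeR 4.0.16 in R 4.3.3 (quasi-likelihood test, treatment as the only term, TMM factors, filterByExpr with a minimum count of 10), two-sided, with Benjamini-Hochberg adjustment over 12339 genes and a threshold of 0.05. CPM are counts per 1000000 of the TMM-scaled library size. The test was tried on simulated counts first. At these depths 3 counts correspond to between 0.132 and 0.163 CPM. Replicates differed beyond counting noise (chi-square per degree of freedom between 2.38 and 6.22) and were kept apart. Alternatives were DESeq2 1.42.0, its size factors, total counts, no filter, a filter at 5 CPM, a replicate block, a minimum fold change of 1.2 and each library left out.

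Members, roles and lists were chosen with earlier results of these data known. Values in every library and full statistics are given for 28 members: a set named by symbol, and the 2 of each role with the largest called change among those without overlap and averaging 2 CPM or more. Values of other members were added with results in view. Of the other gene lists, the 2 called genes with the smallest p in each direction are named. Transcript lengths are of the longest principal transcript of GENCODE release 29 (GRCh38), matched by symbol, and start sequences are of RefSeq (GRCh38.p14). Coordinates are of that build and not of hg19.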

Additional observations from a re-analysis of the deposited data

How the results depend on the processing

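Of the 37 called members, 14 kept their direction and call under all 13 alternatives: EIF1, EIF1B, EIF4E3, EIF4EBP1, EIF4EBP2 and EIF4G3 higher, and EIF1AX, EIF3B, EIF4A3, EIF4E, EIF4G1, EIF4G2, EIF5A and EIF5B lower. The other 23 lost the call in at least 1, and all 23 lost it against a minimum fold change of 1.2. The split into 14 and 23 thus follows the size of the change. Against a minimum fold change of 1.2 the counts were 6 members higher and 8 lower and 10 other translation factors lower. In all, 4765 genes passed it, beside 8198 in the main test. With total counts the median log2 fold change was -0.012 for the members and -0.014 for EIF3, and with a filter at 5 CPM -0.060 and -0.063. Signs turned for members that were not called: EIF3E (0.021), EIF3H (0.024), EIF5 (0.026) and EIF6 (0.065) with total counts, EIF6 with a filter at 5 CPM (0.016), and EEF1D without a filter (-0.0027). Leaving out each library in turn gave log2 fold changes of -0.013 to 0.045 for EEF1D (below 0 without DMSO replicate 1, DMSO replicate 2 or treated replicate 2), -0.028 to 0.14 for EEF1E1 (below 0 without DMSO replicate 3) and -0.047 to 0.0038 for EIF6 (above 0 without DMSO replicate 3). It gave between 10 and 13 members higher and between 21 and 24 lower.

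Without EIF4EBP1, EIF4EBP2 and EIF4EBP3, 11 members were higher and 24 lower. A replicate block gave 12 higher and 24 lower. Deviations of same-numbered libraries correlated between -0.07 and -0.0006. With 3 libraries per group this gives no sign that the numbers pair the samples but cannot exclude it. The block ended no call but that of EEFSEC (0.0522). Depth limits EIF4EBP3, EIF1B-AS1, EIF5AL1 and EIF4E3, which have few counts. Absolute RNA per cell was not measured.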
